A study of Homo sapiens with 8 samples.

Results

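Genes for histones and for the proteins that package, modify and read chromatin were followed here at their poly(A) sites. Members were chosen by symbol alone, from the stems of histone, histone-modifying enzyme, remodeller, reader, TAF and Mediator gene names. No measured value entered the rule, though earlier results of these data were known when it was set. They made up 86 of the 3656 genes and 177 of the 7615 site pairs listed in any of the 3 deposited comparisons. RNA 3′ ends came from 8 samples of MDA-MB-231, a cell line from a human breast tumour of the triple-negative type, that expressed dCas9-KRAB, a catalytically dead Cas9 joined to a transcriptional repressor (CRISPR interference). All samples carried a pair of guide RNAs, which were 2 non-targeting guides in the double non-targeting control, a guide to HNRNPC with a non-targeting guide in HNRNPC knockdown (KD), a non-targeting guide with one to PABPC4 under PABPC4 KD, and guides to HNRNPC and PABPC4 in double KD, with 2 replicates in each of the 4 groups. The cells had been sorted for the dCas9-KRAB marker and selected for the guide vectors with antibiotics, and knockdown by this method is partial. Neither HNRNPC nor PABPC4 had a site pair in the tables, so depletion was not checked here.

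A gene with several poly(A) sites makes messages whose 3′ ends differ, and the use of a proximal (upstream) or distal (downstream) site sets how much 3′ UTR, or in some genes how much of the protein, is kept. Cleavage usually follows a hexamer such as AAUAAA or AUUAAA a short way upstream of the end. HNRNPC is a nuclear protein that binds runs of U in pre-mRNA, and PABPC4 is a member of the cytoplasmic poly(A)-binding proteins. Histone-modifying enzymes add or remove acetyl and methyl groups, readers bind these marks, remodellers slide or evict nucleosomes by ATP hydrolysis, and TAF proteins and Mediator join chromatin to RNA polymerase II. Replication-dependent histone messages mostly end in a stem-loop without a poly(A) tail, and oligo(dT) priming therefore misses most of them.

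For each pair of sites in a gene the tables give logAPAR, which is how far the ratio of proximal to distal reads moved from control to KD, as a natural log, and a p-value from the model that the authors fitted. A negative logAPAR is a shift toward the distal site, and a pair is called switched at the study's threshold of p 0.01. The tables hold no value per library, so the errors and p-values below cover counting and not the spread between replicates. The table of PABPC4 KD was assigned to it by elimination, since its name is ambiguous. HNRNPC KD listed 143 member pairs in 70 genes, PABPC4 KD listed 130 pairs in 67 genes and double KD listed 156 pairs in 78 genes. All 3 tables shared 117 member pairs in 58 genes, and 60 member pairs were listed in fewer tables. Depth was low for most of them. The median standard error of a member pair was 0.856 in HNRNPC KD, 0.765 under PABPC4 KD and 0.846 in double KD, at which a logAPAR of 2.21, 1.97 and 2.18, respectively, was needed to reach p 0.01.

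The sites of members are described here beside all sites, members included, by how they are named and what precedes and follows them. These shares were not tested, and a gene can add several sites. Of 210 member sites, 129 were named by an annotated transcript (61.4%, against 53.3% of all sites) and 81 by a genome position. Pairs in which both sites were transcript ends made up 33.3% of the member pairs and 20.3% of all pairs. An identical version was found in Gencode 44 (hg38) for 113 of the transcripts. AATAAA or ATTAAA, searched on the transcribed strand in the last 30 nt of the transcript, was present at 52 of these member ends (46.0%) against 59.7% of all matched ends. A-rich genome sequence, meaning 6 consecutive A, or 12 A or more, within 20 nt past the end, followed 17 member ends (15.0%) against 9.55% of all. Oligo(dT) can prime on such sequence inside a transcript. A run of 5 T in the last 100 nt, the DNA form of the U run that HNRNPC binds, was found before 35.4% of member ends and 34.5% of all ends. Position-named sites lay inside their gene on hg38 at 10 of 81 members, so these positions follow a genome build that is not hg38 and is not named, and they are given unconverted.

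Ends of genes that passed p 0.01 against control or in a difference between tables are shown because some pairs of them differ in the letters that usually mark a cleavage site. Each is the last 30 nt of the transcript in hg38, 5′ to 3′ on the strand of the gene, with AATAAA or ATTAAA in capitals.
MBD3 proximal, ENST00000592012.5, chr19:1576640-1576669, minus strand: ttcggtgcgtccgctagactttggtgccca
MBD3 distal, ENST00000156825.5, chr19:1573596-1573625, minus strand: ttacaagcAATAAAatgctcctgtctctgc
MED22 proximal, ENST00000610888.4, chr9:133340905-133340934, minus strand: acttgATTAAAacaccgccacttttttgca
KDM4B proximal, ENST00000536461.5, chr19:5153076-5153105, plus strand: taaaagagtgtcctaacagtccccgggcta
KDM4B distal, ENST00000611640.4, chr19:5153566-5153595, plus strand: ataatgaATTAAAggttcatgaacgctgcg
HMGB3 distal, ENST00000325307.12, chrX:150990742-150990771, plus strand: ataaagtttcttaatcactcttcccaaaaa
CHD3 distal, ENST00000380358.9, chr17:7912726-7912755, plus strand: ggttgtacatataaattatactttcctttc
SETD5 distal, ENST00000399686.6, chr3:9479211-9479240, plus strand: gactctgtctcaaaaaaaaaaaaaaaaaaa

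A hexamer stood before the distal end of MBD3 and KDM4B and before the proximal end of MED22. No such hexamer was found in the 30 nt of the other ends printed, although AATAAA lay within 50 nt of the HMGB3 distal end. A-rich sequence followed the proximal end of CBX6 and the distal ends of MED22 and SETD5.

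The first question was how many chromatin genes switched poly(A) sites in each KD. In HNRNPC KD 4 member pairs in 4 genes passed p 0.01, namely those of MBD3, HMGB3, CHD3 and SETD5, with 3 shifts to the distal and 1 to the proximal site. In PABPC4 KD 2 pairs passed, of SETD5 and KDM5A, both to the distal site. In double KD 6 pairs in 6 genes passed, of which MBD3 and CHD3 shifted to the distal site and MED22, KDM5A, HMGB3 and CBX6 to the proximal site. Over the comparisons together 8 pairs in 7 genes passed, and 79 genes with a listed pair did not pass in any table.

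These shares rest on few pairs and were close to those of all genes. Member pairs past p 0.01 were 2.8% of those listed in HNRNPC KD against 2.08% of all pairs, 1.54% under PABPC4 KD against 0.756%, and 3.85% in double KD against 4.33%. At an adjusted p of 0.05 (Benjamini-Hochberg over each whole table), 1 member pair passed in HNRNPC KD (0.699%) against 0.427% of all pairs. In double KD 5 passed (3.21%) against 2.23%, and in PABPC4 KD 0 passed against 0.0168%. At an unadjusted p of 0.05 there were 9 member pairs in HNRNPC KD (6.29%), 5 under PABPC4 KD (3.85%) and 9 in double KD (5.77%), against 6.77%, 4.03% and 9.12% of all pairs. Median logAPAR over member pairs was 0.01 in HNRNPC KD, 0.08 under PABPC4 KD and 0.05 in double KD, against 0.01 over all pairs in each table. Member pairs with a negative logAPAR were 49.0%, 45.4% and 48.1% of those listed, against 49.6%, 49.5% and 49.5% of all pairs.

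**Figure D1:**
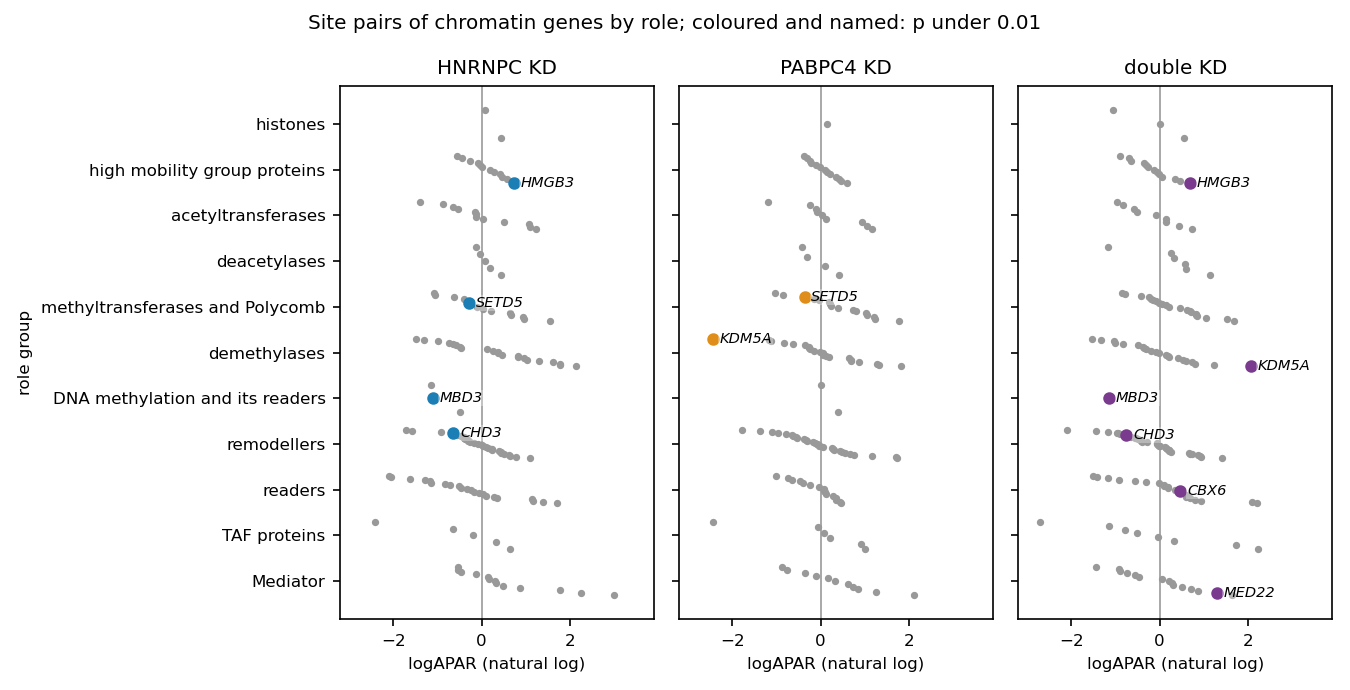
logAPAR (natural log, horizontal axis) of every member site pair in HNRNPC KD, PABPC4 KD and double KD, each against control, by role group; points within a group are spread vertically by value, and coloured, named points passed p 0.01. Most groups spread on both sides of 0, and the 4, 2 and 6 named pairs come from several groups.

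MBD3 shifted toward its distal site in both groups depleted of HNRNPC. It encodes a methyl-CpG-binding-domain protein of the NuRD remodelling and deacetylase complex (ENSG00000071655, chr19:1573596-1592865, minus strand, hg38). Its 2 sites share a last exon start and lie 3044 nt apart. The distal one ends the protein-coding transcript printed above with AATAAA, and the proximal one ends a transcript annotated for nonsense-mediated decay. logAPAR was -1.11 in HNRNPC KD (standard error 0.217, 95% interval -1.53 to -0.68, APAlog p 3.54e-07, adjusted p 0.000259). In double KD it was -1.14 (standard error 0.22, 95% interval -1.57 to -0.71, APAlog p 1.85e-07, adjusted p 2.99e-05). In PABPC4 KD it was 0.02 (95% interval -0.52 to 0.56, APAlog p 0.943). The proximal to distal ratio was thus 0.330 times that of control in HNRNPC KD and 0.318 times in double KD, and close to control in PABPC4 KD. The least-covered of the 4 read numbers behind the HNRNPC KD value lay between 21.1 and 84.6 reads, as far as the standard error fixes it. The other genes of DNA methylation and its readers were thinly covered. DNMT3A, a de novo DNA methyltransferase, was listed in 2 tables with standard errors of 1.32 and 1.33. MBD1, which binds methylated CpG, was listed in 1 table with a standard error of 1.37.

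Among the high mobility group genes, whose products bend or loosen DNA on nucleosomes, HMGB3 was the only gene of 8 to pass p 0.01 (ENSG00000029993, chrX:150980509-150990771, plus strand, hg38). Of its 4 sites, the third, at position 150157242 in the build of the tables, was set against the distal end of ENST00000325307.12. logAPAR of this pair was 0.73 in HNRNPC KD (standard error 0.207, 95% interval 0.32 to 1.14, APAlog p 0.000428, adjusted p 0.0864) and 0.70 in double KD (standard error 0.180, 95% interval 0.34 to 1.05, APAlog p 0.000112, adjusted p 0.00804). In PABPC4 KD it was -0.21 (95% interval -0.57 to 0.15, APAlog p 0.25). The shift was toward the proximal site wherever HNRNPC was depleted, the direction opposite to that of MBD3. Of 13 high mobility group pairs per table, 1, 0 and 1 passed p 0.01 in HNRNPC KD, PABPC4 KD and double KD. Of all pairs 2.08%, 0.756% and 4.33% passed. So few member pairs do not set this group apart from other genes.

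HMGB3 has enough sites for the reads of each to be solved from the 3 tables. The distal site held 196.7 ± 14.0 reads in control, 79.9 ± 8.94 in HNRNPC KD, 226.0 ± 15.0 under PABPC4 KD and 134.1 ± 11.6 in double KD, where reads are normalised and summed over 2 libraries and the error is the square root of the reads. The third site held 86.6 ± 9.30, 72.9 ± 8.54, 80.6 ± 8.98 and 118.4 ± 10.9 reads in the same order. In HNRNPC KD the ratio thus moved with fewer distal reads and little difference at the third site, while in double KD the distal site was lower and the third site higher than in control. The distal share of HMGB3 reads was 67.0% in control, 49.8% in HNRNPC KD, 71.3% under PABPC4 KD and 51.5% in double KD. Summed over its sites, HMGB3 held 293.6, 160.5, 317.1 and 260.5 reads. In bulk RNA fewer cells that express a gene and less RNA per cell cannot be told apart.

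The remaining high mobility group genes were HMGA2, HMGB1, HMGB2, HMGN1, HMGN2, HMGN4 and the pseudogene HMGB1P5, whose reads cannot be assigned with certainty because it resembles HMGB1. HMGN1, which binds nucleosomes and loosens their folding, had the smallest p of these in double KD, with a logAPAR of -0.89 (standard error 0.675, APAlog p 0.187). It was -0.09 in HNRNPC KD and 0.60 under PABPC4 KD. All 3 of its intervals covered 0.

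**Figure D2:**
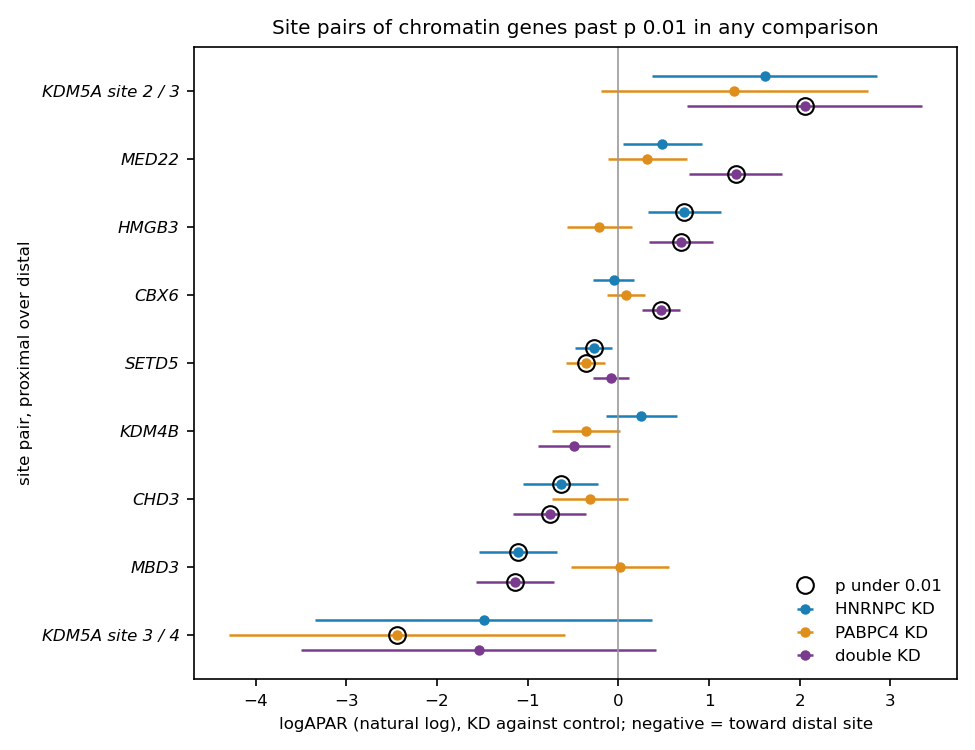
logAPAR (natural log, horizontal axis) with 95% Wald intervals of the 9 site pairs that passed p 0.01 in any table or in a difference of tables, for HNRNPC KD, PABPC4 KD and double KD against control; circled points passed p 0.01, and KDM5A sites are numbered from the proximal end. MBD3 and CHD3 lie left of 0 and HMGB3 right of 0 in HNRNPC KD and double KD, while CBX6 is away from 0 in double KD alone.

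Among the remodellers, CHD3 passed the threshold (ENSG00000170004, chr17:7884796-7912760, plus strand, hg38). It encodes an ATP-dependent helicase that can take the motor position in NuRD. Its position-named site at 7815522 in the build of the tables was set against the end of ENST00000380358.9 in the last exon. logAPAR was -0.64 in HNRNPC KD (95% interval -1.05 to -0.22, APAlog p 0.00273, adjusted p 0.227), -0.31 under PABPC4 KD (95% interval -0.73 to 0.11, APAlog p 0.144) and -0.75 in double KD (95% interval -1.16 to -0.35, APAlog p 0.000248, adjusted p 0.0152). All 3 values lay toward the distal site, and the PABPC4 KD interval covered 0. CHD4, the other NuRD motor, did not pass in any table, with a logAPAR of 0.43 (standard error 0.472) in HNRNPC KD, 0.29 (0.442) under PABPC4 KD and -0.64 (0.429) in double KD. It is named after its values were seen.

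The other 30 remodeller pairs in HNRNPC KD and 34 in double KD did not pass. Under PABPC4 KD 0 of 30 remodeller pairs passed. Of all pairs 2.08%, 0.756% and 4.33% passed p 0.01 in HNRNPC KD, PABPC4 KD and double KD. CHD2, a remodeller of actively transcribed chromatin, came next in double KD at -0.54 (standard error 0.322, APAlog p 0.0951), and it was 0.22 in HNRNPC KD and -0.04 under PABPC4 KD. SMARCA4, the BRG1 motor of the SWI/SNF complex, was covered well enough for a narrow interval and is named for that, after its values were seen. Its logAPAR was 0.10 (95% interval -0.14 to 0.34) in HNRNPC KD, 0.06 (-0.19 to 0.30) under PABPC4 KD and 0.20 (-0.04 to 0.45) in double KD. SMARCC1, a SWI/SNF core subunit, gave for its first against its last site -0.17 (-0.65 to 0.31), -0.12 (-0.55 to 0.31) and 0.16 (-0.28 to 0.61) in the same order.

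CBX6, a chromodomain protein of Polycomb repressive complexes, passed in double KD and in no other table (ENSG00000183741, chr22:38861422-38872249, minus strand, hg38). Its 2 ends lie 2807 nt apart in overlapping last exons, and A-rich genome sequence follows the proximal one. logAPAR was -0.05 in HNRNPC KD (95% interval -0.27 to 0.18, APAlog p 0.675) and 0.09 under PABPC4 KD (95% interval -0.12 to 0.30, APAlog p 0.413). In double KD it was 0.47 (standard error 0.107, 95% interval 0.26 to 0.68, APAlog p 1.28e-05, adjusted p 0.00135). The ratio was 1.59 times that of control in double KD, and the intervals of both KDs on their own ended below 0.30. The part of the A-rich sequence in this value was not tested.

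The readers together, which include bromodomain, PHD-finger and ING proteins, had 22 pairs listed in HNRNPC KD, 16 under PABPC4 KD and 23 in double KD, of which that of CBX6 in double KD was the only one past p 0.01. At an unadjusted p of 0.05, 1 of the HNRNPC KD pairs and 0 of the PABPC4 KD pairs passed. Of all pairs 2.08%, 0.756% and 4.33% passed p 0.01 in HNRNPC KD, PABPC4 KD and double KD. At p 0.05 these shares were 6.77% in HNRNPC KD and 4.03% under PABPC4 KD.

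Mediator, the bridge between transcription factors and RNA polymerase II, had 10 genes listed. MED22, a subunit of its head module, passed in double KD (ENSG00000148297, chr9:133338312-133348131, minus strand, hg38). Its 2 coding transcript ends lie 2582 nt apart in last exons that start at different places, with ATTAAA before the proximal end and A-rich genome sequence after the distal end. logAPAR was 0.49 in HNRNPC KD (95% interval 0.05 to 0.92, APAlog p 0.0296, adjusted p 0.635), 0.32 under PABPC4 KD (95% interval -0.12 to 0.76, APAlog p 0.151) and 1.29 in double KD (standard error 0.261, 95% interval 0.78 to 1.81, APAlog p 7.31e-07, adjusted p 0.000103). The proximal to distal ratio was 3.65 times that of control in double KD, against 1.63 and 1.38 times in the KDs of HNRNPC and PABPC4. The departure of the double KD value from the sum of the other 2 was 0.49 with a 95% interval of -0.31 to 1.29, which covered 0.

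MED28, another head subunit, did not pass in any table but had large values. Its first site against its second gave 2.24 in HNRNPC KD (standard error 0.900, APAlog p 0.0128), 2.11 under PABPC4 KD (standard error 0.874, APAlog p 0.0156) and 1.63 in double KD (standard error 0.907, APAlog p 0.0716). These rest on few reads. The first site held 1.76 reads in control, 8.42 in HNRNPC KD, 10.4 under PABPC4 KD and 6.44 in double KD, and the second held 24.1, 12.3, 17.3 and 17.2. All 3 KDs share the same 2 control libraries, so the low first site in control enters each value.

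KDM5A, which removes methyl groups from histone H3 lysine 4, had 5 sites and passed p 0.01 at 1 pair in PABPC4 KD and another in double KD (ENSG00000073614, chr12:280057-389320, minus strand, hg38). The first site is the end of ENST00000544760.1 at chr12:309891 in hg38, which lies upstream of the 3′ end of the gene at 280057 and is followed by A-rich sequence. The other 4 are positions 393490, 392967, 390772 and 390054 in the build of the tables, in proximal to distal order. The second site against the third gave a logAPAR of 2.06 in double KD (95% interval 0.76 to 3.35, APAlog p 0.00186, adjusted p 0.0708), 1.61 in HNRNPC KD (95% interval 0.38 to 2.85, APAlog p 0.0106) and 1.28 under PABPC4 KD (95% interval -0.19 to 2.75, APAlog p 0.0884). The third against the fourth gave -2.44 under PABPC4 KD (95% interval -4.30 to -0.59, APAlog p 0.00984, adjusted p 0.951), -1.49 in HNRNPC KD and -1.54 in double KD, with intervals in these KDs that covered 0.

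The third site of KDM5A, 523 nt downstream of the second, enters both of these pairs. It held 15.7 ± 3.97 reads in control, 5.29 ± 2.30 in HNRNPC KD, 3.44 ± 1.85 under PABPC4 KD and 4.21 ± 2.05 in double KD, so all 3 KDs lay below control. The same 2 control libraries stand behind each of these comparisons, and their count enters every one. Its share of the KDM5A reads was 10.4% in control and 3.76%, 2.98% and 2.93% in the KDs. The fourth site held 2.588, 3.851, 6.498 and 3.22 reads in the same order, with errors of 1.609, 1.962, 2.549 and 1.794. Under PABPC4 KD the third against the fourth thus shifted with fewer reads at the third site and more at the fourth. The rise at the fourth was less than the summed errors, and its reads were few. The second site held 10.8 ± 3.29, 18.3 ± 4.28, 8.52 ± 2.92 and 22.7 ± 4.76 reads, and so lay higher in the groups with HNRNPC depleted, though in HNRNPC KD by less than the summed errors. The first site took most reads, with 113.8 in control, 107.4 in HNRNPC KD, 93.3 under PABPC4 KD and 104.5 in double KD, and differed by less than the counting error between HNRNPC KD, double KD and control.

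Below 6 reads, many sums could also be split into whole reads of each library. The reconstructed values below 6 reads lay within 0.1% of a sum of whole reads of 2 libraries, each times a scaling factor of its own, at 97.3% of sites in control, 97.5% in HNRNPC KD, 98% under PABPC4 KD and 95.9% in double KD. Which library is which replicate is not told by the values. The only split of the third KDM5A site within that tolerance was 3 and 1 reads in the PABPC4 KD libraries and 1 and 4 in the double KD libraries. Several splits were possible in HNRNPC KD, and the control value of 15.7 reads is too high to be split.

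**Figure D3:**
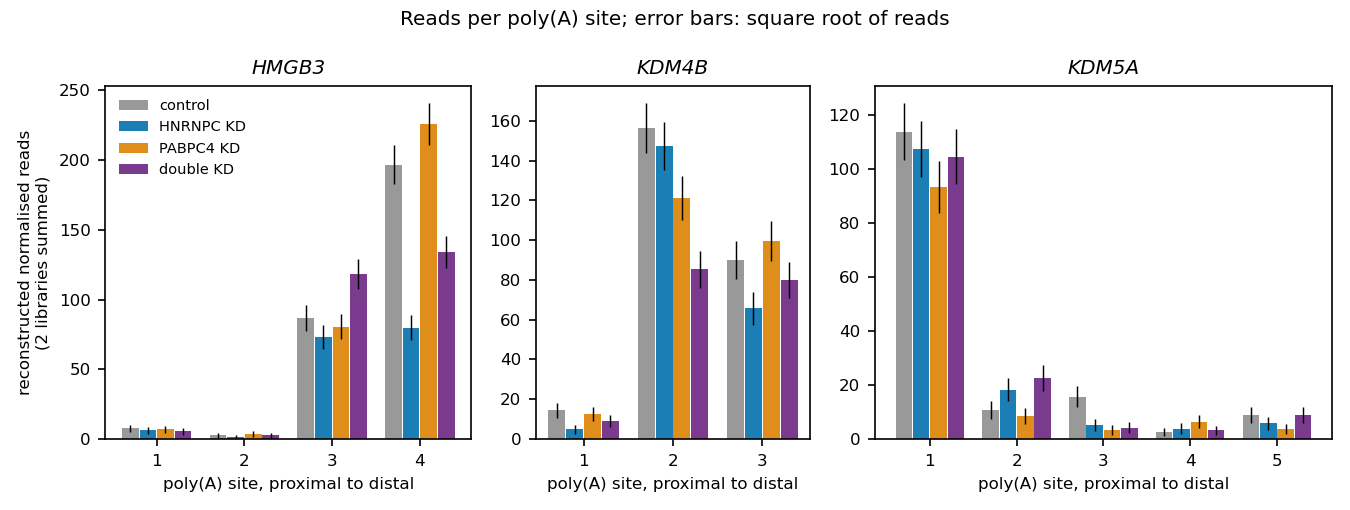
Reconstructed normalised reads (vertical axis, 2 libraries summed) at the poly(A) sites of HMGB3, KDM4B and KDM5A, numbered from proximal to distal, in control, HNRNPC KD, PABPC4 KD and double KD; error bars are the square root of the reads. HMGB3 site 4 is lowest in HNRNPC KD at 79.9 reads, KDM4B site 2 is lowest in double KD at 85.2, and KDM5A site 3 is highest in control at 15.7.

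KDM4B, a demethylase of histone H3 lysine 9 and 36, did not pass against control (ENSG00000127663, chr19:4969113-5153598, plus strand, hg38). The most upstream of its listed ends, of ENST00000589104.5, held few reads. These were 14.4 in control, 5.05 in HNRNPC KD, 12.5 under PABPC4 KD and 9.04 in double KD. The 2 main ends of KDM4B lie 490 nt apart in the same last exon, and ATTAAA stands before the distal one. Proximal, here and at the printed ends, means the upstream one of these 2 main ends. logAPAR was 0.26 in HNRNPC KD (standard error 0.199), -0.36 under PABPC4 KD (standard error 0.189, APAlog p 0.0590) and -0.49 in double KD (standard error 0.204, APAlog p 0.0164). The proximal end held 156.5 ± 12.5 reads in control, 147.4 ± 12.1 in HNRNPC KD, 121.2 ± 11.0 under PABPC4 KD and 85.2 ± 9.23 in double KD. The distal end held 90.1 ± 9.49, 65.7 ± 8.10, 99.7 ± 9.98 and 80.1 ± 8.95. The proximal share was highest in HNRNPC KD at 67.6% and lower with PABPC4 depleted, at 51.9% under PABPC4 KD and 48.9% in double KD, against 59.96% in control.

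SETD5, a SET-domain protein related to histone methyltransferases, passed in both KDs of a factor on its own and not in double KD (ENSG00000168137, chr3:9397615-9479240, plus strand, hg38). The pair set ENST00000402198.6 against ENST00000399686.6, and the version of the former was not matched, so its end was not placed here. logAPAR was -0.27 in HNRNPC KD (95% interval -0.48 to -0.07, APAlog p 0.00847, adjusted p 0.442), -0.36 under PABPC4 KD (95% interval -0.57 to -0.15, APAlog p 0.000750, adjusted p 0.743) and -0.08 in double KD (95% interval -0.28 to 0.12, APAlog p 0.432). A-rich sequence follows the distal end, and its part in these values was not tested. Of the other methyltransferase and Polycomb genes, SETD2, which trimethylates histone H3 lysine 36, had -0.79 in double KD (standard error 0.628, APAlog p 0.209), and KMT2A, a histone H3 lysine 4 methyltransferase, had 1.67 (standard error 1.38, APAlog p 0.224). For SETD2 the values in HNRNPC KD and PABPC4 KD were 0.22 and -0.14. The KMT2A pair was listed in double KD alone.

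Histones themselves were 3 genes. H3-3A encodes the replication-independent variant H3.3, and its pair had the smallest standard errors of the precise pairs named here, for which it was chosen after its values were seen. logAPAR was 0.07 in HNRNPC KD (95% interval -0.06 to 0.19), 0.14 under PABPC4 KD (95% interval 0.02 to 0.25, APAlog p 0.0224) and 0.02 in double KD (95% interval -0.10 to 0.14). None of these passed p 0.01, and no interval reached 0.26. H2AJ, a replication-independent variant of H2A, and H2AC11, a clustered H2A gene, had standard errors of 1.12 and 1.64 in double KD, which allow no statement on a shift of moderate size.

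Acetyltransferases (KAT6A, KAT6B and KAT7) and deacetylases (7 HDAC and sirtuin genes) had 0 pairs past p 0.01 in any table, and 0 at an unadjusted p of 0.05. They listed only 12, 9 and 9 pairs and 5, 4 and 6 pairs in HNRNPC KD, PABPC4 KD and double KD. Of all pairs 2.08%, 0.756% and 4.33% passed p 0.01, and 6.77%, 4.03% and 9.12% passed p 0.05. So few pairs do not set these groups apart from other genes. KAT6A, the MOZ acetyltransferase, was covered well at 1 pair, where logAPAR was -0.12 (95% interval -0.58 to 0.33) in HNRNPC KD, 0.04 (-0.39 to 0.47) under PABPC4 KD and -0.09 (-0.52 to 0.34) in double KD. KAT7, the HBO1 acetyltransferase, had -0.65, -0.24 and -0.83 with standard errors of 0.574, 0.597 and 0.565. HDAC4, a class IIa deacetylase, had 0.09, -0.42 and 0.58 with standard errors of 0.504, 0.577 and 0.565. SIRT1, an NAD-dependent deacetylase, was listed in double KD alone, at -1.17 (standard error 1.27).

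TAF genes, which encode TBP-associated factors of the polymerase I and II initiation complexes, likewise had 0 pairs past p 0.01 and 0 at an unadjusted p of 0.05. Their 5, 6 and 8 listed pairs were too few to set them apart from all pairs, of which 6.77%, 4.03% and 9.12% passed p 0.05. TAF1A, a polymerase I factor, was far from 0 at -2.41, -2.44 and -2.71, but with standard errors of 1.49, 1.79 and 1.51. TAF3, a TFIID subunit that binds methylated H3 lysine 4, had 2.23 in double KD (standard error 1.49). Both were not distinguishable from 0 at this depth.

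Pairs with a standard error below 0.25 numbered 11 in HNRNPC KD, 10 under PABPC4 KD and 10 in double KD. Past p 0.01 were 4, 1 and 4 of them, respectively. The share among all pairs of this precision was not counted, so these numbers do not compare chromatin genes with others. The pairs that passed were therefore mostly among those with enough reads. Pairs at or above the median standard error could not reach p 0.01 with a shift smaller than that needed at the median.

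The next question was whether loss of HNRNPC acts alike in cells that hold PABPC4 and in cells depleted of it. Subtracting the PABPC4 KD value from the double KD value removes the control and leaves the effect of HNRNPC loss in PABPC4-depleted cells, in libraries that HNRNPC KD and its control do not share. At p 0.01, 3 of the 117 shared member pairs passed (2.56%) against 1.9% of all 4692 shared pairs. HMGB3 was 0.91 higher in double KD than in PABPC4 KD (standard error 0.257, two-sided z test p 0.000415, adjusted p 0.0672), MBD3 differed by -1.16 (standard error 0.352, z test p 0.000947, adjusted p 0.111) and MED22 by 0.97 (standard error 0.343, z test p 0.00450, adjusted p 0.304). These errors add the variances of both tables and are an upper bound on the counting error, since the control cancels. The spread between replicates is not in them. With the error of the reconstructed reads, which leaves the control out, the HMGB3 difference had a z test p of 5.37e-07 and an adjusted p of 8.16e-05. This adjustment ran only over pairs of genes with 3 or more shared sites. It is thus not on the same footing as the adjusted p of 0.0672 over all shared pairs. MBD3 and MED22 have 2 sites each, which is too few to reconstruct.

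The values of HNRNPC loss with PABPC4 present and depleted were -1.11 and -1.16 for MBD3 and 0.73 and 0.91 for HMGB3. The difference between them was -0.06 (95% interval -0.87 to 0.75) for MBD3 and 0.18 (-0.47 to 0.82) for HMGB3, intervals that covered 0 and were wide. Of the 4 pairs called in HNRNPC KD, 3 kept their direction in PABPC4-depleted cells (MBD3, HMGB3 and CHD3 at -0.44) and SETD5 did not, at 0.28. Over all genes 92 of 117 pairs called in HNRNPC KD had the same direction in both (78.6%). Over all 117 pairs, 66 had the same direction in both (56.4%), against 55.9% of all pairs.

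**Figure D4:**
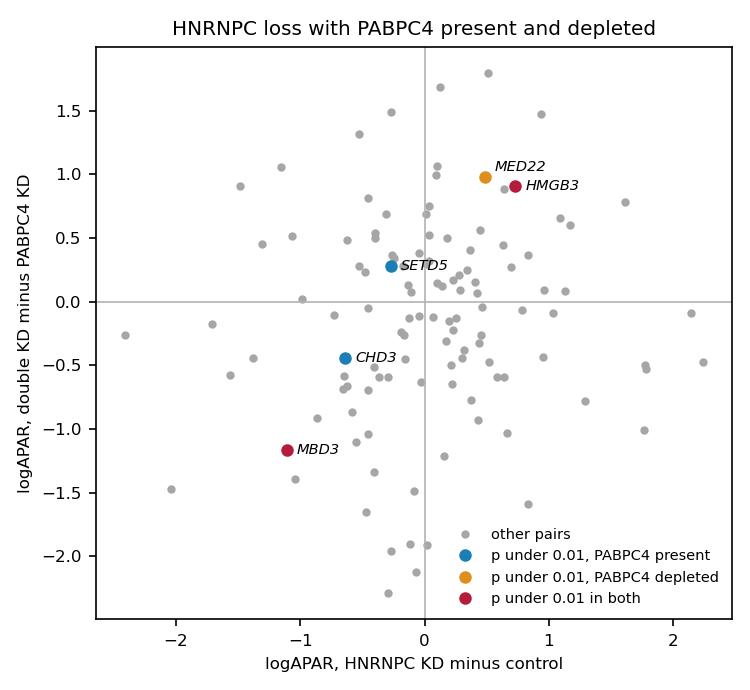
Effect of HNRNPC loss on logAPAR (natural log) of the 117 member pairs listed in all tables, in cells with PABPC4 (horizontal axis, HNRNPC KD minus control) and in PABPC4-depleted cells (vertical axis, double KD minus PABPC4 KD). MBD3 and HMGB3 passed p 0.01 in both, on opposite sides of 0, while SETD5 lies left of 0 on one axis and above 0 on the other.

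The effect of PABPC4 loss in HNRNPC-depleted cells was taken in the same way, as double KD minus HNRNPC KD. Here 2 of 117 member pairs passed p 0.01 (1.71%) against 1.56% of all pairs. CBX6 differed by 0.51 (standard error 0.157, z test p 0.00105, adjusted p 0.145) and KDM4B by -0.75 (standard error 0.285, z test p 0.00884, adjusted p 0.576). With the error of the reconstructed reads the KDM4B difference had a z test p of 0.000520 and an adjusted p of 0.0364. In PABPC4 KD the same pairs were at 0.09 and -0.36, and each lay on the same side in both backgrounds. The intervals of both pairs with HNRNPC present covered 0 (APAlog p 0.0590 for KDM4B). Over all 117 pairs 63 had the same direction of PABPC4 loss in both backgrounds (53.8%), against 50.02% of all pairs.

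Last, each double KD value was set against the sum of the values of the KDs of HNRNPC and PABPC4. At p 0.01, 1 of 117 member pairs departed from the sum (0.855%) against 1.04% of all pairs. This was SETD5, where the sum lies further toward the distal site than the double KD value, by 0.55 (standard error 0.181, 95% interval 0.20 to 0.91, z test p 0.00211, adjusted p 0.431). CBX6 departed by 0.43 (95% interval 0.06 to 0.80, z test p 0.0242, adjusted p 1.00).

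Other genes of the same pathways that the symbol stems do not catch were counted in a list of 142 genes. Of these 47 were listed in HNRNPC KD, 41 under PABPC4 KD and 47 in double KD. In HNRNPC KD 3 of their 97 pairs passed p 0.01 (3.09%), in PABPC4 KD 1 of 101 and in double KD 1 of 101 (0.990% each), where 2.08%, 0.756% and 4.33% of all pairs passed. GATAD2A, a zinc-finger subunit of NuRD, shifted to the proximal end of ENST00000418032.3 in HNRNPC KD at 0.81 (standard error 0.280, APAlog p 0.00369, adjusted p 0.260) and in double KD at 0.69 (standard error 0.265, APAlog p 0.00943, adjusted p 0.222), and was at 0.09 under PABPC4 KD. SS18, a SWI/SNF subunit, was at -1.08 in HNRNPC KD (APAlog p 0.00443), -0.69 under PABPC4 KD and -0.81 in double KD. CBFA2T2, a transcriptional corepressor, was at 2.71 in HNRNPC KD (standard error 1.00, APAlog p 0.00663) and at -0.01 in double KD. ATRX, a remodeller that deposits H3.3, was at 0.92 under PABPC4 KD (APAlog p 0.00205, adjusted p 0.951), 0.90 in HNRNPC KD and 0.72 in double KD.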

How the data were processed

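QuantSeq REV libraries, primed on the poly(A) tail, were made from 8 MDA-MB-231 samples. The authors counted reads at distinct Gencode transcript ends with Salmon 0.14.1 and fitted APAlog, a multinomial logistic regression per gene. Submitters' processing notes also name UMI-tools and hg38, but whether reads were collapsed to molecules is not given in the sources used here. The deposited tables hold only the authors' comparisons: logAPAR on a natural log scale, with its p-value before and its q-value after correction, given per site pair for KD against control. They name no samples beyond the comparison, and the table called PABPC4 KD was assigned by elimination. The number of per-sample columns is 0, so depth per library, SD and refits could not be given.

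Wald standard errors were computed from logAPAR and p. Differences between tables were tested with two-sided z tests over all shared pairs and adjusted by Benjamini-Hochberg over these. With errors from reconstructed reads, tests and adjustment covered only pairs of genes with 3 or more shared sites. At genes with 3 or more shared sites (18 member genes with 61 sites, 681 genes in all), reads per site and group were solved from the variances, each site adding the inverse of its reads in control and in KD; the solver and the z tests were tested on simulated data. Reconstructed reads had a median per member site of 14.1 in control, 9.39 in HNRNPC KD, 10.3 under PABPC4 KD and 11.9 in double KD. Their splitting into whole reads per library was chosen after seeing the data. Sequences came from hg38 with Gencode 44. Named were member pairs past p 0.01 in any table or difference (for several pairs of a gene in a table, the one of smallest p), and the 2 genes per role group with the smallest p in double KD. A gene that this rule names and some sequences are not reported here. Members and lists were chosen with earlier results of these data known. Alternatives were adjusted p 0.05, p 0.001, outermost sites, shared pairs, a limit of 5 on absolute logAPAR, no TAF or Mediator genes, and errors from reconstructed reads. Python 3.11.15, numpy 2.4.6, pandas 2.3.3 and scipy 1.17.1 were used.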

Additional observations from a re-analysis of the deposited data

Results flagged for a closer look

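The double KD value of SETD5 differed from the sum of the HNRNPC KD and PABPC4 KD values by 0.55 (standard error 0.181, two-sided z test p 0.00211, adjusted p 0.431 over all shared pairs), which means that the difference between KD and control was not the same with and without depletion of the other factor at the unadjusted threshold. All 3 tables enter this value, it rests on 2 sites that could not be reconstructed, and it did not pass after adjustment.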

How the results depend on the processing

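No paired analysis was possible because no value per library was at hand, and for the same reason no replicate could be left out. Of 42 alternative values, 30 stayed close to the main one, among them every count in double KD against control. The largest change among those counts was from 6 to 4 pairs, with outermost sites. The 30 also hold every value under the limit on absolute logAPAR. That limit could change none of them, since logAPAR of member pairs lay between -2.71 and 3.01. Median logAPAR also moved little but crossed 0, from 0.01 to -0.05 (outermost sites) and -0.03 (without TAF and Mediator genes) in HNRNPC KD and from 0.05 to -0.02 (outermost sites) and -0.03 (shared pairs) in double KD. At an adjusted p of 0.05 the 4 pairs of HNRNPC KD became 1, the 2 of PABPC4 KD became 0, and the 3, 2 and 1 pairs of double KD minus PABPC4 KD, double KD minus HNRNPC KD and the departure from the sum became 0, 0 and 0. At p 0.001 there were 2 pairs in HNRNPC KD and 1 in PABPC4 KD. With only the outermost sites of each gene there was 1 pair in PABPC4 KD and 1 in double KD minus HNRNPC KD. With errors from reconstructed reads, which leave out genes with fewer than 3 shared sites, there was 1 pair in each of the 2 differences and 0 in the departure. Counting error alone enters every p, and the PABPC4 KD values rest on the assignment of its table. At the median standard error a member pair needed a shift of about 2 on the natural log scale to reach p 0.01.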
